A study of Mus musculus with 9 samples.

Results

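The genes described here carry out DNA repair at replication forks, signal DNA damage, or are switched on by the tumour suppressor p53, and they were compared between mouse liver tumours and control liver. The list holds 36 genes, chosen by name with earlier results of these data known. Of them, 32 were measured on a probe set that the platform annotation gives to 1 gene. These 32 are part of 19938 genes tested, and they comprise 14 of 15 repair genes, all 5 checkpoint genes and 13 of 15 p53 targets. Xrcc2, Trp53, Bax and Gdf15 were not analysed here. H2afx is listed under its newer symbol H2ax, and every member except Bard1 had a single probe set.

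Total RNA of 9 mouse samples was hybridised to the Affymetrix GeneChip of the mouse Gene 1.0 ST design, 1 sample to an array. The 4 controls were healthy livers of monotransgenic mice with the Rosa26-lsl-NICD allele and no Cre. NICD, the intracellular domain of the Notch1 receptor, is made from this allele only after Cre recombination. The 5 hepatocellular carcinomas (HCC) came from bitransgenic AFP-Cre/Rosa26-lsl-NICD mice, in which the promoter of alpha-fetoprotein, a gene of fetal liver cells, drives Cre. Both groups were of a hybrid 129 x C57BL/6 background and 6 to 12 months old, and the allele itself was shared by both. Sex was not given in the sources used here, and nothing says that every sample came from a separate animal, so p-values measure the spread between these samples, which may be technical.

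Homologous recombination rebuilds a broken or stalled replication fork from the sister copy. BRCA1 and BARD1 prepare the ends, PALB2 and BRCA2 act on the single strands that result, and the Fanconi anaemia proteins unhook crosslinks ahead of the fork. ATM and ATR sense breaks and bare single-stranded DNA, and pass the signal to the kinases CHK2 and CHK1 and to the histone variant H2AX. p53, stabilised by these kinases, switches on genes for growth arrest, cell death and its own inhibitor MDM2. Most repair genes of the first kind are transcribed in S phase, while adult hepatocytes are mostly at rest.

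Values are log2 RMA intensities per array, where 1 unit is a doubling, and a group is given as mean ± SD with n = 4 control and n = 5 HCC arrays. A gene is said to have risen or fallen where its adjusted p in limma, over all 19938 genes, was under 0.05. Array medians lay between 91.5 and 101 linear units. The 8 hepatocyte markers were present in both groups, with a summed intensity of 65272 to 69604 in control livers and 40594 to 64605 in HCC. Fewer hepatocytes and less RNA per hepatocyte cannot be told apart in such bulk samples, and this holds for every gene below.

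Repair genes were mostly higher in the tumours, yet 1 of 14, the mismatch repair gene Msh6, passed the test over all genes. Of the 14, 13 had a positive log2 difference (42.5% of all genes did), 1 rose, none fell, and 13 did not pass. Their median log2 difference was 0.46, against -0.033 over all genes. Over all genes 0.858% were called higher and 0.160% lower in limma. At an unadjusted p under 0.05 in limma, 8 repair genes were higher and none lower, where 10.5% of all genes were higher and 9.85% lower. Every HCC array lay above every control array for 5 of the 14 (35.7%), Bard1, Rad54l, Rad54b, Blm and Msh6, against 5.63% of all genes. For Bard1 this held on the probe set used, while its other probe sets overlapped between the groups.

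Msh6 encodes a subunit of the complex that recognises mismatched bases behind the replication fork. It measured 7.83, 7.70, 7.80 and 7.99 on control arrays 1 to 4 and 9.0, 8.54, 8.71, 8.51 and 8.32 on HCC arrays 1 to 5. The groups did not overlap, and HCC array 5 was the lowest tumour. The rise from 7.83 ± 0.12 to 8.62 ± 0.26 was 1.73-fold (log2 difference 0.79, SE 0.13, limma adjusted p = 0.0392). Leaving out control array 1, 2, 3 or 4 took the adjusted p in limma to 0.138, 0.115, 0.133 and 0.0856, and leaving out HCC array 2, 3 or 4 to 0.0635, 0.0829 and 0.0822. The log2 difference stayed between 0.69 and 0.86 under all 18 alternative settings, and 10 of them kept the call.

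Promoters of 23 of the 32 measured members are in the RefSeq table used here (GRCm38.p6), as windows from 250 bases before to 50 after the gene's start. E2F factors are known regulators of S-phase genes, so their forms were searched. The part of E2F in the differences of the members was not tested. The E2F forms TTTCCCGC, TTTGGCGC, TTTCGCGC and TTTGCCGC were searched on both strands, with the cell cycle element CHR (TTTGAA or TTCGAA) and CCAAT. No searched form lies within another, though matches of different motifs may overlap in a sequence. An E2F form was found in 3 of 11 repair genes, Msh6, Bard1 and Brca2, in 1 of 4 checkpoint genes, Chek2, and in 0 of 8 p53 targets, against 2.60% of 27025 genes. CHR was found in 1 of 11, 1 of 4 and 1 of 8 (21.7% of all genes), and CCAAT in 8 of 11, 2 of 4 and 6 of 8 (41.1%). Chek1, which had the largest difference of the members, had none of the 3 motifs in its window. Of the genes with an E2F form, Msh6 and Bard1 were separated between the groups, and Brca2 and Chek2 overlapped. Blm and Rad54l were separated and had no E2F form. A match is a description of these letters only. The 4 windows with an E2F form follow, on the gene's strand, with matches to any of these 3 motifs in capitals.
Msh6 (chr17:87974800-87975099, plus strand): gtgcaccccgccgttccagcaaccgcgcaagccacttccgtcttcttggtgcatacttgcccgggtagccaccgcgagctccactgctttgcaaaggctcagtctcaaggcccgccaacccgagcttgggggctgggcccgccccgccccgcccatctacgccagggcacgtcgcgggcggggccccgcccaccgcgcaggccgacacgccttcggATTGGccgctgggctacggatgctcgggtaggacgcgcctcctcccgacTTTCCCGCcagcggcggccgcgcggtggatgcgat
Bard1 (chr1:71102923-71103222, minus strand): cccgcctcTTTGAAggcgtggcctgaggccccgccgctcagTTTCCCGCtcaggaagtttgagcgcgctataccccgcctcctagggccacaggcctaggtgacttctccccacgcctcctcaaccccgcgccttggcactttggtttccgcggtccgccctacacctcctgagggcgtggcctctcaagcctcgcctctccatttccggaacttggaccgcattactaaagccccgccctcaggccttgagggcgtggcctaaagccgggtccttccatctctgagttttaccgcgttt
Brca2 (chr5:150522371-150522670, plus strand): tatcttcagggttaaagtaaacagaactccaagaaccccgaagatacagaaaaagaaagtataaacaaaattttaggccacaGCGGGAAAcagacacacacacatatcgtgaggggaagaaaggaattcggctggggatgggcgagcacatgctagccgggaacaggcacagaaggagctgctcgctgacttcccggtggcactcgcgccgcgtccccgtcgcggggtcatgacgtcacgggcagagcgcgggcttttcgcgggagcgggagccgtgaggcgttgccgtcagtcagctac
Chek2 (chr5:110839733-110840032, plus strand): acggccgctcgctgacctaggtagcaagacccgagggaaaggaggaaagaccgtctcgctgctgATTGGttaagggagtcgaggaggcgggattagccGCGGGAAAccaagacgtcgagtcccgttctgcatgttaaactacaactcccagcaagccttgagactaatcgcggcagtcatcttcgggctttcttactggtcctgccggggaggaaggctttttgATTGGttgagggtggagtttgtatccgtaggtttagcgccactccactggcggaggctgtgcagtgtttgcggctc
The form in Msh6 begins 15 bases after the annotated start, and those in Chek2, Brca2 and Bard1 begin 152, 168 and 209 bases before it.

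The BRCA1 group differed among its members. Brca1, the ubiquitin ligase and scaffold of break repair, measured 6.26, 6.48, 6.15 and 5.95 on the controls and 7.46, 6.57, 6.48, 6.82 and 6.27 on the HCC arrays. HCC array 5 lay within the control range and HCC array 1 stood highest (means 6.21 ± 0.22 and 6.72 ± 0.46, adjusted p = 0.243 in limma), and the difference of 0.51 was 0.33 without HCC array 1. Bard1, its obligate partner, measured 6.76, 6.38, 6.80 and 6.54 on the controls and 7.58, 7.02, 6.89, 7.39 and 6.99 on the HCC arrays. All 5 tumours were above all controls, with a difference of 0.55 (SE 0.16, adjusted p = 0.119 in limma). The other probe sets of Bard1 gave 0.73 (adjusted p = 0.108 in limma over all probe sets) and 0.29 (adjusted p = 0.448), and both overlapped between the groups. On the former, HCC array 5 (6.546) lay just below control array 4 (6.558). On the latter, HCC array 2 (5.31) lay below every control.

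Brca2, a mediator of homologous recombination, measured 6.64 to 6.82 on the controls and 7.82, 6.55, 7.29, 7.28 and 6.88 on the HCC arrays. HCC array 2 was below every control, and the other 4 were above all of them (difference 0.43, and 0.26 without HCC array 1, adjusted p = 0.305 in limma). Palb2, which bridges BRCA1 and BRCA2, measured 5.59 to 5.76 on the controls and 5.45 to 6.09 in HCC, and the groups overlapped (difference 0.14, and 0.073 without HCC array 4, adjusted p = 0.558). Brip1, the helicase that binds BRCA1, lay between 7.16 and 7.31 on the controls and between 7.19 and 7.23 on tumours 2 to 5, and reached 8.13 on tumour 1. Its difference was 0.18 with HCC array 1 and -0.0077 without it, so a single tumour held the whole of it.

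Among the genes of strand invasion, both RAD54 translocases were separated between the groups. Rad54b measured 5.99, 5.99, 5.99 and 5.68 on the controls and 6.51, 6.20, 6.30, 6.50 and 6.77 on the HCC arrays. This was the one repair gene that was highest on HCC array 5 (difference 0.55, SE 0.13, adjusted p = 0.0735 in limma, and 0.0473 without HCC array 5). Rad54l lay between 5.85 and 6.00 on the controls and measured 6.42, 6.10, 6.10, 6.75 and 6.29 on the HCC arrays. Its tumours too were all above the controls, by a smaller difference of 0.41 (SE 0.13, adjusted p = 0.146). Rad51ap1, which stimulates strand invasion, measured 5.42 to 5.78 on the controls and 6.50, 5.65, 5.90, 6.64 and 5.86 on the HCC arrays, with HCC array 2 inside the control range (adjusted p = 0.230).

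Of the Fanconi anaemia genes none passed. Fancd2 and Fanci encode the pair that is ubiquitinated at a crosslink. Fancd2 measured 5.63 ± 0.11 in control liver and 5.91 ± 0.27 in HCC, with 4 of 5 tumours above all controls (adjusted p = 0.285 in limma). Fanci lay between 6.37 and 6.46 on the controls and between 6.31 and 6.46 on tumours 2 to 5, and was 6.99 on tumour 1. The same deposited value stood on 5 of its 9 arrays, and its control SD was 0.04. Without HCC array 1 its difference went from 0.11 to -0.0068. Fanca, of the ligase core complex, had the smallest difference of the repair genes, with 6.65 ± 0.08 in control liver and 6.64 ± 0.10 in HCC (95% interval of the difference -0.17 to 0.16).

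Blm, the helicase that dissolves joined chromosomes after repair, measured 6.05 to 6.24 on the controls and 7.50, 6.52, 6.45, 6.44 and 6.40 on the HCC arrays. The groups were separated, HCC array 1 stood far above the other tumours, and the difference was 0.53 with it and 0.32 without it (adjusted p = 0.217 and 0.0894 in limma). Exo1, an exonuclease of mismatch and break repair, had the largest difference of the repair genes after Msh6, with 5.96, 5.59, 5.70 and 5.77 on the controls and 7.16, 6.08, 6.20, 6.62 and 5.94 on the HCC arrays. HCC array 5 overlapped with control array 1 (difference 0.65, SE 0.23, adjusted p = 0.175).

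**Figure D1:**
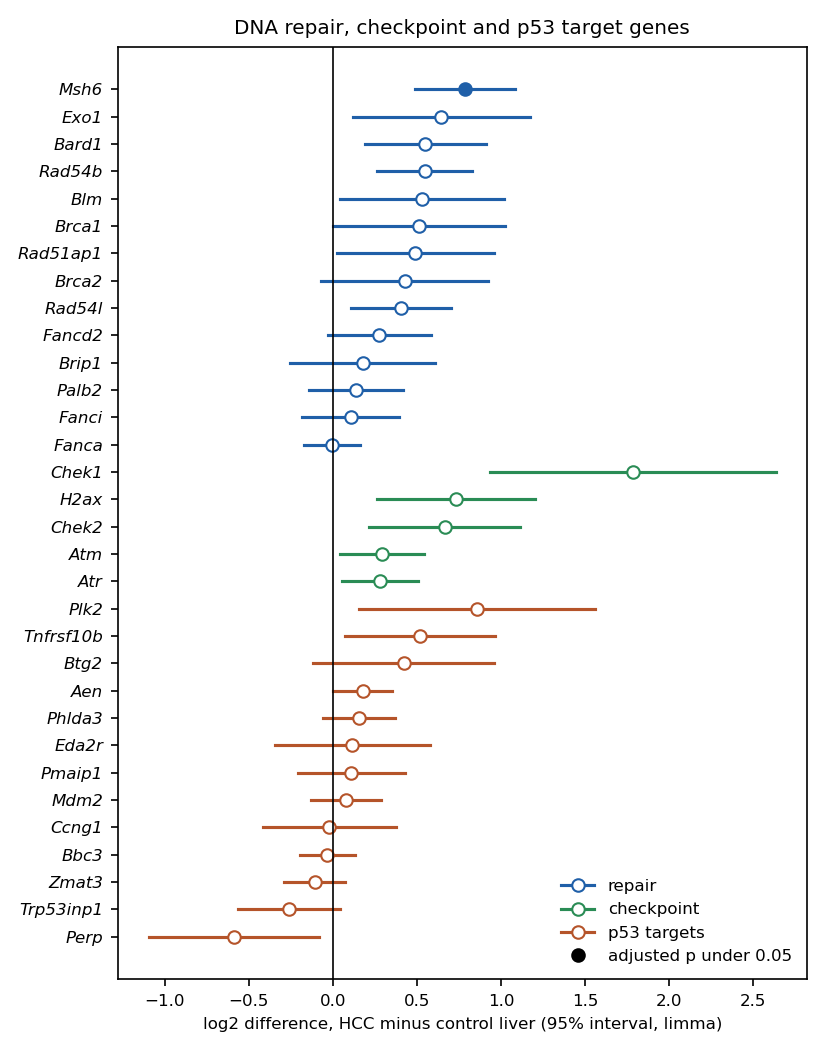
Log2 difference of HCC minus control liver for each of the 32 measured genes, ordered within role, with 95% intervals from limma (n = 4 control and n = 5 HCC arrays). Msh6 carries the one filled point, Chek1 lies farthest to the right at 1.78, and the p53 targets spread on both sides of 0, from -0.59 for Perp to 0.86 for Plk2.

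The 5 checkpoint genes all had positive differences, and none passed the test over all genes, although each had an unadjusted p under 0.05 in limma (10.5% of all genes were higher at that p). Their median difference was 0.67. Chek1 and H2ax, 2 of the 5 (40.0%), had no overlap between the groups (5.63% of all genes). Chek1, the kinase that ATR switches on when forks stall, measured 6.09, 6.42, 6.29 and 5.84 on the controls and 9.04, 6.79, 8.20, 7.99 and 7.69 on the HCC arrays. Every tumour was above every control, HCC array 2 by the least, and it was the only one of the 32 members whose mean difference reached 2-fold. The means of 6.16 ± 0.25 and 7.94 ± 0.82 gave a 3.44-fold difference (log2 1.78, 95% interval 0.93 to 2.63, adjusted p = 0.0615 in limma). Chek1 passed without HCC array 2 (adjusted p = 0.0329) and without HCC array 5 (0.0406), in limma with array weights (0.0207) and among genes above the median level (0.0385). The other 14 of the 18 settings did not call it, and its adjusted p in limma ranged from 0.0207 to 0.166 over all 18.

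H2ax, whose phosphorylated form marks chromatin around a break, measured 6.93, 7.23, 7.16 and 7.40 on the controls and 8.64, 7.94, 7.65, 7.72 and 7.59 on the HCC arrays. All tumours were above all controls, HCC array 1 by the most (difference 0.73, SE 0.21, adjusted p = 0.115 in limma). Probe sets of the array that list H2ax with other H2A genes were not used, and whether these paralogs share signal with its own probe set was not tested. Chek2, the kinase downstream of ATM, measured 6.31, 6.53, 6.19 and 5.80 on the controls and 7.41, 6.93, 6.49, 6.68 and 6.84 on the HCC arrays. HCC array 3 overlapped with control array 2, control array 4 was the lowest of all, and the difference was 0.67 (SE 0.20, adjusted p = 0.124). Adding Xist as a covariate took it to 0.84, past the threshold (adjusted p = 0.0399 in limma). Xist, an RNA of the inactive X chromosome, was 4.83 on control array 4 and 4.92 to 5.10 on HCC arrays 3 to 5, and 10.68 to 11.76 on the other arrays. Low Xist was thus more frequent among the HCC arrays than among the controls, and the sex of the samples was not given.

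The sensor kinases differed by less. Atm measured 7.07, 7.24, 6.77 and 7.24 on the controls and 7.49, 7.30, 7.48, 7.34 and 7.24 on the HCC arrays, and HCC array 5 shared its value with controls 2 and 4. Atr measured 7.58, 7.37, 7.68 and 7.53 on the controls and 7.90, 7.61, 8.03, 7.73 and 7.85 on the HCC arrays, with only HCC array 2 inside the control range. The differences were 0.29 for Atm and 0.28 for Atr (adjusted p = 0.194 and 0.171 in limma), in both cases smaller than those of Chek1, Chek2 and H2ax. That of Atm was 0.19 without control array 3.

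**Figure D2:**
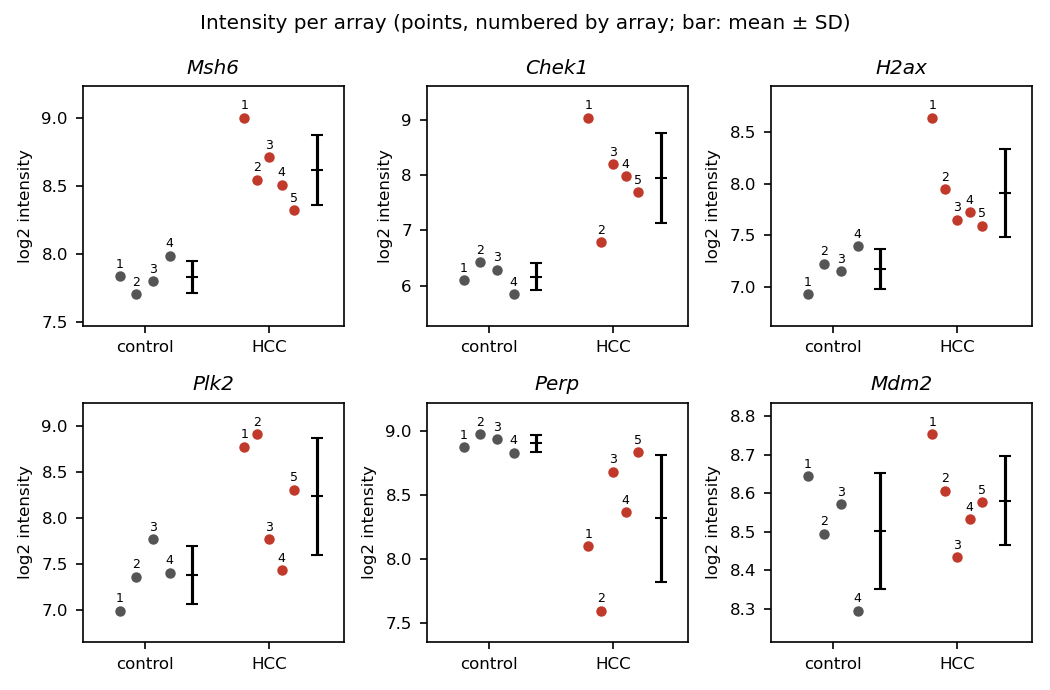
Log2 RMA intensity of Msh6, Chek1, H2ax, Plk2, Perp and Mdm2 on each array, with array numbers beside the points and mean ± SD as a bar (n = 4 control, n = 5 HCC). Msh6, Chek1 and H2ax have no overlap, Plk2 overlaps through tumours 3 and 4 and Perp through tumour 5, and Mdm2 has fully mixed groups.

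The p53 target genes showed no common direction, with 8 of 13 differences positive and 5 negative. In limma none passed in either direction over all genes. Their median difference was 0.11, against -0.033 over all genes. At an unadjusted p under 0.05 in limma, 2 of 13 (15.4%) were higher and 1 lower, beside 10.5% and 9.85% of all genes. Every tumour lay above every control for 0 of the 13 and below every control for 0, where the shares of all genes were 5.63% and 3.86%.

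Of the feedback and reporter targets none passed. Mdm2, the ubiquitin ligase that degrades p53, measured 8.64, 8.50, 8.57 and 8.29 on the controls and 8.75, 8.61, 8.43, 8.53 and 8.58 on the HCC arrays. The groups were mixed, and the 95% interval of the difference ran from -0.13 to 0.29 (adjusted p = 0.658 in limma). Ccng1, cyclin G1, measured 10.50, 10.71, 10.54 and 11.07 on the controls and 10.73, 10.36, 10.37, 10.99 and 10.98 on the HCC arrays. Its difference was -0.020 (95% interval -0.42 to 0.38), and it changed sign with the repeated quantile normalisation. Eda2r, a receptor of the tumour necrosis factor family, was 5.32 ± 0.30 and 5.44 ± 0.36, Phlda3, an inhibitor of AKT, was 6.71 ± 0.19 and 6.86 ± 0.07, Zmat3, an RNA-binding protein, was 6.02 ± 0.06 and 5.91 ± 0.13, and Aen, a nuclease of apoptotic cells, was 6.92 ± 0.11 and 7.10 ± 0.09. These 4 overlapped between the groups (adjusted p from 0.247 to 0.779 in limma). For Aen 4 of 5 tumours were above all controls (unadjusted p = 0.0507 in limma), and the 95% interval of the difference for Eda2r ran from -0.35 to 0.58.

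The p53 half-site, searched by its published consensus on both strands with no mismatch, was found in the promoters of 3 of 8 p53 targets, Ccng1, Mdm2 and Aen, in 2 of 11 repair genes and in 0 of 4 checkpoint genes, against 9.55% of all genes. A pair of such half-sites up to 13 bases apart was found in 0 of the 23 members, against 0.074% of all genes. Pairs with a mismatch, or outside these windows, were not searched, so the count does not show that a target lacks a full site. The windows of Ccng1 and Mdm2, targets whose groups were mixed, are shown with the half-site in capitals.
Ccng1 (chr11:40755237-40755536, minus strand): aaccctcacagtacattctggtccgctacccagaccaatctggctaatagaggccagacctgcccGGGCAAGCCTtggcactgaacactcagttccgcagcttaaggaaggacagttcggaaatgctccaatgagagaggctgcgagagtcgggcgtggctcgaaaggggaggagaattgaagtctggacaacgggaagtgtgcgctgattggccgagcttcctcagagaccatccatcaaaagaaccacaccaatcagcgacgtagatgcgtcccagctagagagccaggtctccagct
Mdm2 (chr10:117710709-117711008, minus strand): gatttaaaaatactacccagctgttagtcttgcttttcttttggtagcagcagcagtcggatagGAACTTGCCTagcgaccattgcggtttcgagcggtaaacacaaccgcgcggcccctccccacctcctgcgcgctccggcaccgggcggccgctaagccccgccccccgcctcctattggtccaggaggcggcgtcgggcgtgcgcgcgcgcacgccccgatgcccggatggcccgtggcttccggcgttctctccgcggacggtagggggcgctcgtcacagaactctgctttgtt
The half-site begins 185 bases before the start of Ccng1 and 186 bases before that of Mdm2.

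The death effectors were mixed. Bbc3 (PUMA), which blocks the survival proteins of the BCL2 family, was 6.99 ± 0.05 in control liver and 6.95 ± 0.11 in HCC. Pmaip1 (NOXA), which neutralises MCL1, lay between 6.47 and 6.60 on the controls and between 6.42 and 6.60 on tumours 1, 3, 4 and 5, and was 7.17 on tumour 2. Without that tumour its difference went from 0.11 to -0.017. Tnfrsf10b, the TRAIL death receptor, measured 6.33, 5.69, 6.19 and 6.35 on the controls and 7.14, 6.84, 6.32, 6.60 and 6.37 on the HCC arrays, and 4 of 5 tumours were above all controls (difference 0.52, SE 0.20, adjusted p = 0.196 in limma). Perp, a tetraspan membrane protein of desmosomes and of p53-dependent death, measured 8.87, 8.98, 8.94 and 8.83 on the controls and 8.10, 7.60, 8.68, 8.37 and 8.84 on the HCC arrays. Tumours 1 to 4 were below all controls and tumour 5 was within their range (difference -0.59, SE 0.22, adjusted p = 0.196). Trp53inp1, a p53 cofactor and autophagy protein, had the same array pattern, with 9.83 to 10.10 on the controls and 9.67, 9.40, 9.60, 9.77 and 10.10 on the tumours (difference -0.26, adjusted p = 0.301).

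Plk2 and Btg2 are targets of p53 that also respond to growth signals. Plk2, a polo-like kinase, measured 6.99, 7.36, 7.77 and 7.40 on the controls and 8.78, 8.91, 7.77, 7.43 and 8.31 on the HCC arrays. Tumours 1, 2 and 5 were above all controls and tumours 3 and 4 were not (difference 0.86, SE 0.31, adjusted p = 0.176 in limma). Btg2, an antiproliferative adaptor of mRNA decay, measured 7.81, 8.26, 8.98 and 7.82 on the controls and 8.35, 8.85, 8.69, 8.83 and 8.48 on the HCC arrays. Control array 3 was above every tumour, and the difference was 0.42, or 0.68 without that array (SE 0.24 with all arrays, adjusted p = 0.346).

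**Figure D3:**
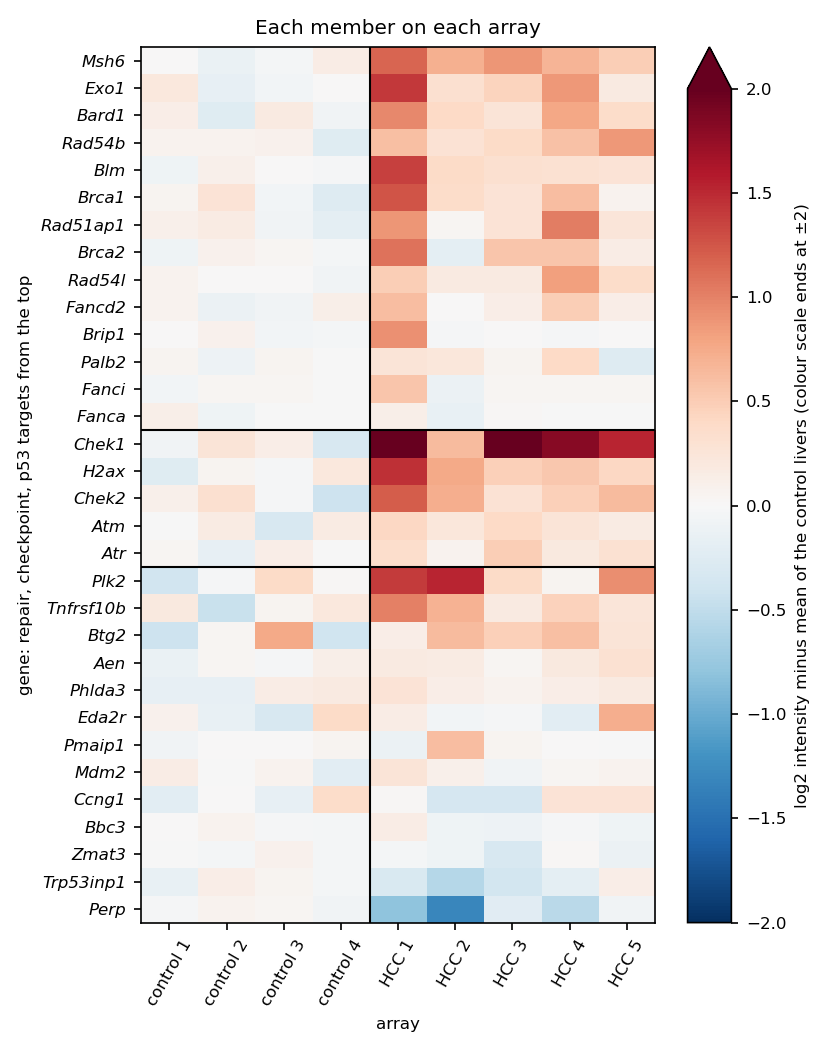
Log2 intensity of each measured gene on each array minus its mean in the control livers, as colour, with the genes in 3 blocks (repair, checkpoint, p53 targets) and the arrays in columns. The scale ends at 2 log2 units, which Chek1 exceeds on HCC arrays 1 and 3, and HCC array 1 is the reddest column in the repair block.

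The tumours differed from one another more than the controls did. The median SD over repair genes was 0.28 in HCC and 0.095 in control liver, against 0.19 and 0.14 over all genes. Of the repair genes only Brca2, Bard1, Brip1 and Msh6 lay above the median level of all genes, with a median difference of 0.49. The part of low intensity in these SDs was not tested. HCC array 1 was the highest tumour for 10 of 14 repair genes and 4 of 5 checkpoint genes, against 21.4% of all genes, and for 4 of 13 p53 targets. It lay above every control for 14 of 14 repair genes, where 28.4% of all genes did. HCC arrays 2, 3, 4 and 5 lay above every control for 8, 10, 11 and 8 of the 14 (25.6%, 24.9%, 26.3% and 19.4% of all genes). HCC array 2 was the lowest tumour for 6 repair genes (4618 of all 19938 genes) and HCC array 5 for 5 (3982 of all genes).

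Repair was set against p53 targets on each array by the mean log2 difference of each list from the control mean. The repair mean was 0.83, 0.17, 0.27, 0.51 and 0.21 on HCC arrays 1 to 5, and -0.049 to 0.047 on the controls. The p53 target mean was 0.17, 0.11, -0.018, 0.062 and 0.22 on the same tumours, and -0.087 to 0.081 on the controls. Thus the repair mean was above the highest control on every tumour. The p53 target mean was above its highest control on tumours 1, 2 and 5 and inside the control range on tumours 3 and 4. The repair mean exceeded that of the targets by 0.66, 0.062, 0.29, 0.45 and -0.011, and the controls ranged from -0.089 to 0.13 in this difference. Tumours 1, 3 and 4 were thus above the control range and tumours 2 and 5 inside it. The mean of this difference in HCC was 0.29 ± 0.28, and 0.20 without HCC array 1. Checkpoint genes were at 1.26, 0.48, 0.74, 0.66 and 0.61, above the highest control of 0.12 on every tumour.

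Proliferation markers were higher on the same arrays as the repair genes. All 21 measured of 22 had a positive difference, with a median of 1.34, and 1, Top2a, rose (5.91 ± 0.10 to 8.70 ± 1.07, 6.89-fold, adjusted p = 0.0409 in limma), while 0.858% of all genes were called higher. Every tumour lay above every control for 14 of the 21 (66.7%, against 5.63% of all genes). At an unadjusted p under 0.05 in limma 19 were higher (10.5% of all genes). Top2a lost the call in limma without any 1 control and without HCC array 2, 3 or 4 (adjusted p 0.0683 to 0.138), and its difference was 2.78, or 1.44 as the mean of its probe sets. The summed intensity of the list was 3593 to 3952 on the controls and 5465 to 13378 on the tumours, and Ccnb1 was not analysed here. Their mean difference was 2.26, 1.08, 0.63, 1.70 and 0.57 on HCC arrays 1 to 5. HCC arrays 1 and 4 were the highest tumours by this measure and by the repair mean, while HCC array 2 was above HCC arrays 3 and 5 by proliferation and below them by repair. The part of dividing cells in the differences of repair and checkpoint genes was not tested.

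**Figure D4:**
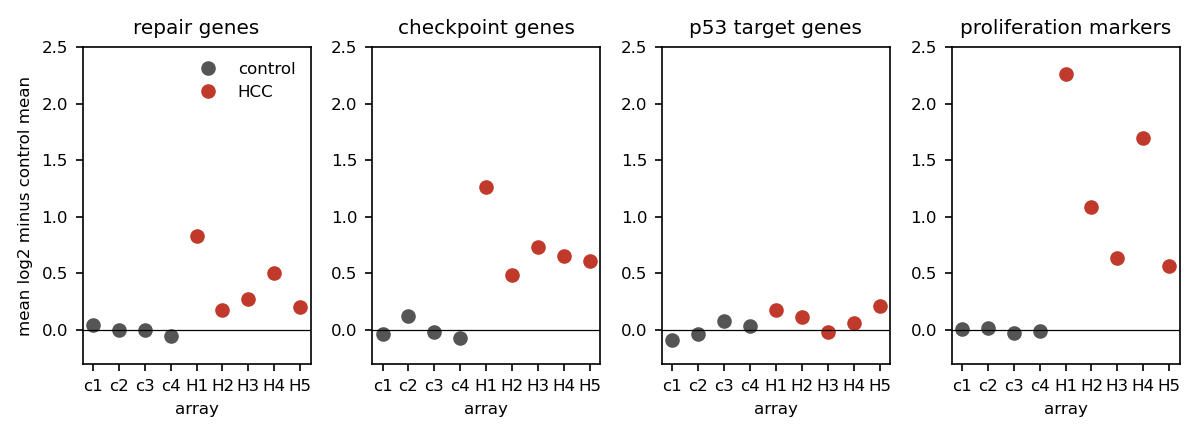
Mean log2 difference from the control livers over the 14 repair, 5 checkpoint, 13 p53 target and 21 proliferation genes on each array (c1 to c4 control, H1 to H5 HCC), on 1 common axis. Proliferation, repair and checkpoint genes are highest on H1, and the p53 targets stay between -0.087 and 0.22 on all 9 arrays.

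Other genes of the same pathways were counted from lists chosen by their roles, with earlier results of these data known. Of 16 other checkpoint genes 15 had a positive difference, none passed, and 8 had every tumour above every control, against 5.63% of all genes. Their median was 0.41, and Rad18, the ligase that starts damage bypass at stalled forks, came nearest to the threshold (6.69 ± 0.16 and 7.55 ± 0.36, adjusted p = 0.0584 in limma, 0.0497 without HCC array 1 and 0.0328 without HCC array 5). Of 27 other homologous recombination and Fanconi genes 17 were positive with a median of 0.026, none passed and 2 (7.41%) were separated upwards, and Fancm, the fork-remodelling translocase, came nearest (6.00 ± 0.17 and 6.61 ± 0.37, adjusted p = 0.128). Of 4 other mismatch repair genes 3 were positive and none passed, with Pms1, a mismatch repair protein, at 7.84 ± 0.50 and 8.75 ± 0.25 (adjusted p = 0.0868).

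In base excision repair 11 of 17 genes were positive (42.5% of all genes were), 1 rose (0.858% of all genes were called higher) and 5 were separated upwards (5.63% of all genes). Lig1, the ligase that joins Okazaki fragments as well as repair patches, rose from 6.90 ± 0.24 to 8.96 ± 0.52 (4.17-fold, log2 difference 2.06, SE 0.25, adjusted p = 0.0177 in limma). Without control array 1, 2, 3 or 4 its adjusted p in limma was 0.0856, 0.0593, 0.0781 and 0.0509, and its difference lay between 1.89 and 2.20 under the 18 settings. It measured 6.70 to 7.22 on the controls and 9.65, 8.47, 8.99, 9.26 and 8.42 on the HCC arrays, so HCC arrays 1 and 4 were again the highest. Of 8 end joining genes 6 were positive and none passed (median 0.090), with Xrcc5, the KU80 subunit, at 9.69 ± 0.22 and 9.97 ± 0.12 (adjusted p = 0.208). Of 12 nucleotide excision genes 8 were positive, none passed and none was separated (median 0.062), with Ddb1, a damage-sensing ligase subunit, at 9.73 ± 0.19 and 9.95 ± 0.09 (adjusted p = 0.253).

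Of 22 other p53 targets 13 were positive with a median of 0.12, 1 rose and none fell, where 0.858% of all genes were called higher and 0.160% lower. Every tumour lay above every control for 3 of them and below every control for 1 (5.63% and 3.86% of all genes). Beside Sulf2 the separated genes were Polk, a bypass polymerase (difference 0.57), Ckap2, a spindle protein (1.80), and Dcxr, a carbonyl reductase (-1.28), which are named after their values were seen and did not pass (adjusted p 0.0836 to 0.117 in limma). Sulf2, an extracellular sulfatase, rose from 7.59 ± 0.15 to 8.95 ± 0.13 (2.57-fold, log2 difference 1.36, SE 0.10, adjusted p = 0.00150 in limma). It measured 7.40 to 7.74 on the controls and 8.83 to 9.14 on the tumours, and it kept the call under all 18 settings (adjusted p 0.00105 to 0.0224). Of 12 regulators of p53, 7 were positive and none passed (median 0.089). The nearest was Ppm1d, the phosphatase WIP1 that is itself induced by p53, at 7.81 ± 0.22 and 8.37 ± 0.33 (adjusted p = 0.132). Cdkn1a shares its probe set with another gene and was not used.

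Markers of other cells gave no rise or fall in limma except among biliary markers, where Sox9 rose (7.35 ± 0.14 to 9.50 ± 0.65, adjusted p = 0.0228, and 0.0629 to 0.103 without any 1 control). Summed intensity of 13 lymphocyte markers was 1013 to 1131 on the controls and 850 to 1251 on the tumours, and that of 7 endothelial markers 2683 to 3192 and 1469 to 3187. For 8 stellate and fibroblast markers it was 3815 to 4694 and 2021 to 4569, for 5 biliary markers 509 to 582 and 977 to 1902, for 3 erythroid markers 332 to 454 and 285 to 1465, and for 10 macrophage and neutrophil markers 3452 to 8824 and 3450 to 22019. All 8 hepatocyte markers had a negative difference (median -0.54), and 3 of them had every tumour below every control, as did 2 of the 7 endothelial markers (median -0.64), where 3.86% of all genes did. All 5 biliary markers had a positive difference, and 3 had every tumour above every control (5.63% of all genes). The smallest adjusted p of each other list belonged to Cd4 (0.329), Kdr (0.113), Acta2 (0.139), Slc4a1 (0.247), Marco (0.136) and, among hepatocyte markers, Cps1 (0.106). Without HCC array 5, Kdr (0.0486), Acta2 (0.0304) and Cps1 (0.0342) passed. The macrophage and neutrophil mean was highest on HCC array 2 (1.75 above the control mean). Of the p53 targets, this tumour had the highest Pmaip1, Plk2 and Btg2 and the lowest Perp, Trp53inp1 and Ccng1. Hepatocyte markers were nearest to the controls on HCC array 5 (-0.037, against -1.04 to -0.50 on the others). Of the p53 targets, that tumour had the highest Perp, Trp53inp1, Eda2r and Aen. These genes are named after their values were seen. Of all 19938 genes, HCC array 2 was the highest tumour for 3661 and the lowest for 4618, and HCC array 5 the highest for 3578. The part of any of these cell types in the results was not tested.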

How the data were processed

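The deposited values are linear probe set intensities, which the authors made with RMA (named in the submitters' processing notes) and preprocessed with GenePattern and R, per the labels of the series. Their versions are not given in the sources used here. Of 35512 probe sets, 21789 had 1 gene symbol in the platform annotation, and the one with the highest mean log2 was kept per gene, which left 19938 genes. Intensities were turned into log2 with no pseudocount, and the groups were compared with limma 3.58.1 (R 4.3.3; lmFit and eBayes, group as the only term, two-sided, Benjamini-Hochberg over all genes). Tested on simulated data for this comparison over 19938 genes, it recovered 82 of 100 genes set to differ by 1 log2 unit and 94 of 100 set to differ by 2, with 8 false calls. The simulated noise was independent between genes, and the changed genes were drawn at random from all of them. Most members differed by less than 1 log2 unit, so these rates do not give the power for them. The number of arrays limits the precision. Alternatives covered scaling, a filter on dim genes, the variance model, array weights, probe sets, the replicate number, Xist and leaving out each array. All 36 members were to be named, and of each other list the genes past the threshold or else the one with the smallest adjusted p. Members and lists were chosen with earlier results of these data known. Tables were handled with Python 3.11.15 and pandas 2.3.3.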

Additional observations from a re-analysis of the deposited data

Results flagged for a closer look

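In 5 of 64 sets of arrays (32 genes in 2 groups) a single array stood apart from the rest of its group. It did so by more than the critical value of Dixon's ratio, which chance exceeds in about 1 set in 20 of independent normal values. The sets here share the same 9 arrays, and Fanci held the same value on 5 of them, so that rate need not hold. HCC array 1 was the high one for Brip1 (8.13, against 7.19 to 7.23 on the other tumours), Fanci (6.99, against 6.31 to 6.46) and Blm (7.50, against 6.40 to 6.52). HCC array 2 was high for Pmaip1 (7.17, against 6.42 to 6.60), and control array 4 was low for Rad54b (5.68, against 5.99 on the other controls).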

How the results depend on the processing

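The number of members called higher was 1. It was 0 after repeated quantile normalisation, 2 among genes above the median level (a filter that 16 of the 32 members passed), 3 with array weights, 2 with the Xist level as a covariate, and 0 to 3 with 1 array left out (0 without any 1 control or without HCC array 3 or 4; 3, namely Rad54b, Msh6 and Chek1, without HCC array 5). Of all genes tested 0.858% were called higher, and in the same order 0.757%, 2.86%, 2.52% and 1.01%, then 0.0502% to 0.155% without any 1 control, 0.246% and 0.171% without HCC array 3 or 4, and 3.16% without HCC array 5. No member was called lower under any of the 18 settings. Msh6 missed the threshold after repeated quantile normalisation (0.74, adjusted p = 0.0527). The median difference ranged from 0.32 to 0.56 for repair genes and from 0.030 to 0.14 for p53 targets. The repair minus p53 target difference ranged from 0.20 to 0.41. Members with differences near 0 changed sign, none of them past the threshold: Ccng1 with quantile normalisation (0.092), Fanca with array weights (0.017) and Eda2r with the fixed replicate block (-0.037). That block leaves out HCC array 5, and the difference of Eda2r was the same without that array and with no block. With 1 array left out, differences ranged from -0.0077 to 0.23 for Brip1 and -0.0068 to 0.16 for Fanci (below 0 without HCC array 1), -0.017 to 0.17 for Pmaip1 (below 0 without HCC array 2), -0.037 to 0.24 for Eda2r (below 0 without HCC array 5), -0.095 to 0.10 for Ccng1 and -0.038 to 0.029 for Fanca. The cause was not tested.

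Deviations from the group mean had correlations of -0.0040, 0.32, -0.029 and -0.083 between same-numbered control and HCC arrays. Between differently numbered arrays they ran from -0.17 to 0.21. The value of 0.32, for the arrays numbered 2, was the highest, so these correlations do not settle whether the replicate numbers pair the arrays. With the number as a random replicate block 195 genes were higher and 43 lower, against 171 and 32 without a block. As a fixed replicate block, which leaves out HCC array 5, it gave 259 and 220, against 631 and 556 without a block on the same arrays. Msh6 was the one member called with either block, and Rad54b and Chek1 were called on those arrays without it. The range of deposited intensities started at 3.91, detection calls were not used, and a low intensity does not show that a transcript was absent.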
